A study of Mus musculus with 4 samples.

Results

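In the developing spinal cord, Sonic hedgehog secreted by the notochord and floor plate forms a ventral-to-dorsal gradient. Progenitors read that gradient through the Gli transcription factors and switch on or off a set of homeodomain and basic helix-loop-helix factors, which repress each other across shared borders. Factors induced by hedgehog mark ventral domains, and factors held back by it mark intermediate and dorsal domains. The 10 genes described here belong to that set: *Nkx2-2*, *Nkx2-9*, *Nkx6-1*, *Nkx6-2*, *Olig1*, *Olig2*, *Dbx1*, *Dbx2*, *Sim1* and *Mnx1*. They were taken by gene name and are 10 of 37325 named genes with a probe on the array. They are read by 12 probes, with a pair each for *Nkx2-2* and *Mnx1*.

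RNA from whole mouse embryos of 2 genotypes, WT and *Dyrk2*-/-, was hybridised at embryonic days E8.5 and E10.5, on 1 single-colour expression array per genotype and stage. *Dyrk2* encodes a protein kinase, and the mutant mice carry small deletions made with a CRISPR/Cas9 nickase in C57BL/6J. The number of embryos behind each RNA and the deletion line used are not given in the sources used here. All 4 arrays lay on the same slide, and the absence of replicate arrays limits the precision of every difference between genotypes at a stage, for which no test was possible.

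The labels were checked first. At E8.5 the brighter *Dyrk2* probe had a log2 signal of 0.06 in WT and 0.76 in the mutant. At E10.5 these were −0.31 and 0.34. The mutant arrays were thus 1.62-fold and 1.57-fold above WT, and by the other probe 0.03 and 0.28 above it on the log2 scale. Where these probes lie relative to the deletions is not known here, so they check nothing about the genotype, and "*Dyrk2*-/-" below means the array so labelled. The embryos also differed in sex at E10.5. *Xist* was well above background only on the *Dyrk2*-/- E10.5 array, and the Y-linked genes *Ddx3y*, *Eif2s3y*, *Kdm5d* and *Uty* on the other 3.

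Signals are given as log2 of the processed spot intensity minus the 75th percentile of the same array. A level of 0 thus equals that percentile, and levels of different probes are not comparable. Errors are those of the scanner software's error model and cover array noise only. A gene entered a comparison where its brightest probe stood well above background on 1 or both arrays, and was called at 1.5-fold or more. Against an array where it was not well above background, the fold is a bound. Of the 10 factors, 6 were well above background on all 4 arrays. *Nkx2-2* was so on 3, *Olig1* and the brighter *Mnx1* probe on 2, and *Sim1* on 1.

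**Figure D1:**
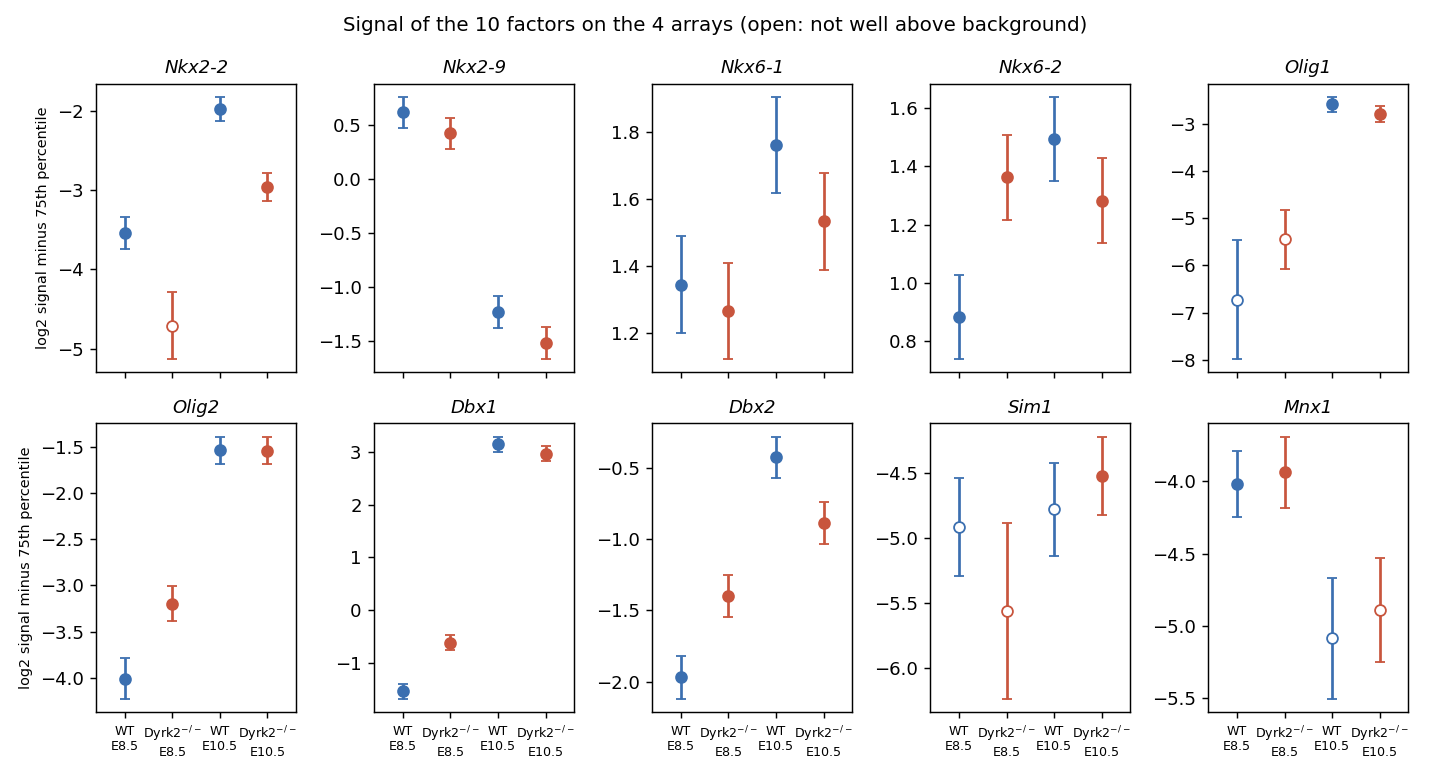
Signal of the brightest probe of each of the 10 factors (vertical axes, log2 signal minus the 75th percentile of the array, a separate scale per gene) on the 4 arrays (horizontal axis). Points are single arrays, WT in blue and *Dyrk2*-/- in red, bars are ± the scanner software's error, and open points are not well above background. *Dbx1* lies between −1.55 and −0.62 at E8.5 and between 2.97 and 3.15 at E10.5.

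The most ventral progenitors, next to the floor plate, express *Nkx2-2* and *Nkx2-9*. By its brighter probe *Nkx2-2* was lower in *Dyrk2*-/- at both stages, but its other probe did not show this at E10.5. The brighter probe read −3.55 ± 0.20 in WT and −4.71 ± 0.43 in *Dyrk2*-/- at E8.5, where the latter was not well above background. That is at least 1.98-fold lower. At E10.5 it read −1.98 ± 0.15 in WT and −2.96 ± 0.17 in *Dyrk2*-/-, which is 1.98-fold lower, and both were well above background. The E10.5 log2 difference of −0.98 was larger than its array error of 0.23. The second *Nkx2-2* probe was dim, at −4.62 in WT and −4.68 in *Dyrk2*-/- at E10.5, a log2 difference of −0.06 ± 0.44, and was not well above background on either E8.5 array. With the probes averaged the E10.5 difference was −0.52, and with normexp background correction the brighter probe gave −0.12 at E8.5 and −0.49 at E10.5, none of which reaches 1.5-fold. The brighter probe has a match of 25 bases in the array's annotation (mm9, chr2:147008888-147008912, minus strand) and the second one of 60 bases (mm9, chr2:147003307-147003366, minus strand).

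*Nkx2-9*, a close relative that is expressed early in the same ventral territory, was high at E8.5 and low at E10.5 in both genotypes. Its levels were 0.61 ± 0.14 in WT and 0.42 ± 0.14 in *Dyrk2*-/- at E8.5. At E10.5 the values were −1.24 ± 0.15 and −1.53 ± 0.15. The genotypes differed by −0.19 ± 0.20 and −0.29 ± 0.21 on the log2 scale, so neither pair was called.

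*Nkx6-1* and *Nkx6-2* encode homeodomain repressors of a broader ventral region, and *Nkx6-1* is needed for motor neuron progenitors. *Nkx6-1* levels were 1.34 in WT and 1.27 in *Dyrk2*-/- at E8.5. At E10.5 the values were 1.76 and 1.53, each ± 0.14. The genotype difference of −0.08 was within the array error of 0.20, and that of −0.23 just beyond it. *Nkx6-2* levels were 0.88 in WT and 1.36 in *Dyrk2*-/- at E8.5. Its E10.5 levels were 1.49 and 1.28. Its WT array at E8.5 was the lowest of the 4, 1.39-fold under the *Dyrk2*-/- array, which was not called.

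*Olig2* specifies motor neuron progenitors, and its neighbour *Olig1* acts with it in the oligodendrocyte lineage. Their probes lie 43.3 kb apart on chromosome 16 (mm9). *Olig2* was at −4.01 ± 0.22 in WT and −3.20 ± 0.19 in *Dyrk2*-/- at E8.5, so that it was 1.75-fold higher on the *Dyrk2*-/- array. At E10.5 the genotypes were nearly equal, at −1.54 in both. *Olig1* was not well above background on either E8.5 array, so no fold is given there, and read −2.58 ± 0.16 in WT and −2.78 ± 0.17 in *Dyrk2*-/- at E10.5.

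*Dbx1* and *Dbx2* mark the intermediate progenitors dorsal to the *Nkx6-1* territory. *Dbx1* levels were −1.55 ± 0.15 in WT and −0.62 ± 0.15 in *Dyrk2*-/- at E8.5. At E10.5 the values were 3.15 ± 0.14 and 2.97 ± 0.14. At E8.5 the *Dyrk2*-/- array was thus 1.90-fold higher, and at E10.5 it was 1.14-fold lower. *Dbx2* levels were −1.97 ± 0.15 in WT and −1.40 ± 0.15 in *Dyrk2*-/- at E8.5. Its E10.5 levels were −0.43 ± 0.15 and −0.89 ± 0.15. It differed by 0.57 at the earlier stage, 1.49-fold and just under the threshold, and by −0.46 at the later one. The earlier difference was 0.31 with no scaling between arrays and 0.0099 with spike-in scaling. The gap between stages was thus narrower on the *Dyrk2*-/- arrays for both *Dbx* genes, a difference that was not tested.

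*Sim1* and *Mnx1* label neurons that have left the cell cycle, *Sim1* the V3 interneurons and *Mnx1* the motor neurons. *Sim1* was well above background only on the *Dyrk2*-/- E10.5 array, at −4.52 ± 0.30, against −4.78 ± 0.36 in WT, where the fold was at least 1.14. The brighter *Mnx1* probe read −4.02 ± 0.23 in WT and −3.94 ± 0.25 in *Dyrk2*-/- at E8.5, and was not well above background on either E10.5 array. The other *Mnx1* probe was well above background on both WT arrays, at −4.41 and −4.23, and on neither *Dyrk2*-/- array. By that probe *Mnx1* was at least 1.09-fold lower in *Dyrk2*-/- at E8.5 and at least 1.45-fold lower at E10.5, so the probes disagreed and no direction is given for this gene.

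**Figure D2:**
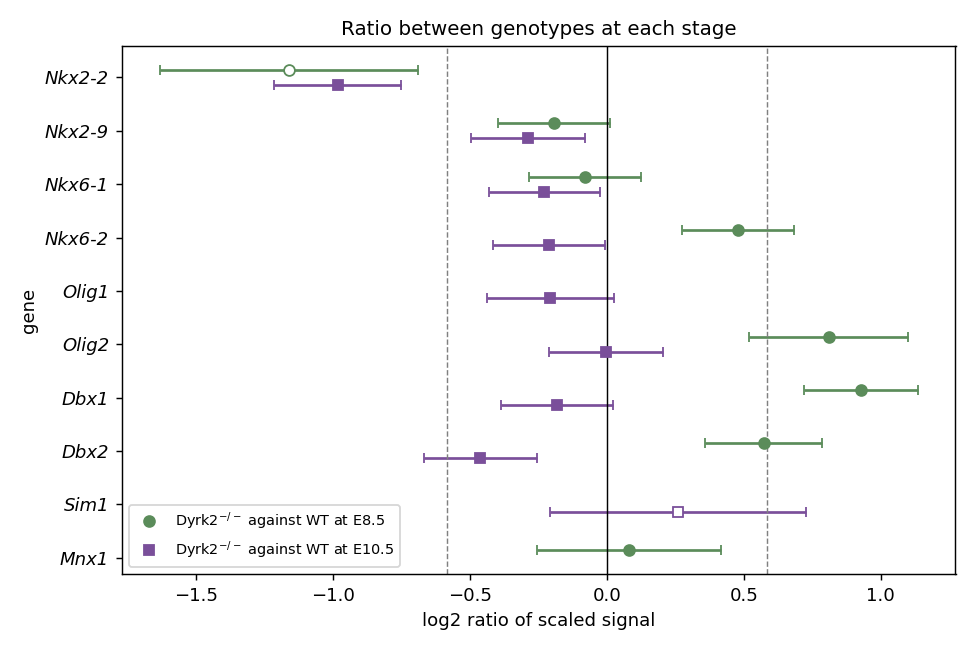
Log2 ratio of *Dyrk2*-/- to WT (horizontal axis) for each factor (vertical axis), circles at E8.5 and squares at E10.5, each 1 array against 1. Bars are ± the combined array error, open symbols have 1 array not well above background, dashed lines mark 1.5-fold, and pairs with neither array well above background are left out. *Nkx2-2* lies at −1.16 at E8.5, an open symbol whose bound is −0.98, and at −0.98 at E10.5. *Dbx1* lies at 0.93 and −0.18.

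Over the set at E8.5, 2 of the 8 factors compared, *Olig2* and *Dbx1*, were called higher in *Dyrk2*-/- and 1, *Nkx2-2*, lower. Among all 20848 genes compared, 5.14% were called higher and 6.52% lower. The median log2 ratio of the 8 factors was 0.28, against −0.02 over all genes. At E10.5, 0 of the 9 compared were called higher and 1, *Nkx2-2*, lower, where 3.51% and 4.22% of 21351 genes were called. The median was −0.21, against −0.0002 over all genes. With spike-in scaling no factor was called higher at E8.5 and *Nkx2-2*, *Nkx2-9* and *Nkx6-1* were called lower, and *Nkx6-2* and *Mnx1* changed sign, to −0.08 and −0.48. *Mnx1* did so too with no scaling (−0.18) and with averaged probes (−0.11). *Dbx1* and *Olig2* were at 0.37 and 0.25 with spike-in scaling, under the threshold. *Olig2* was also under it with normexp, at 0.34, and with no scaling, at 0.55. The counts are small, and no test set the factors against other genes.

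Stage was compared within each genotype. In WT, 6 of 9 were called higher at E10.5 than at E8.5 (*Nkx2-2*, *Nkx6-2*, *Olig1*, *Olig2*, *Dbx1* and *Dbx2*) and 2 lower (*Nkx2-9* and *Mnx1*), where 18.8% of 21788 genes were called higher and 17.5% lower. The *Nkx6-2* call was lost with spike-in scaling and with normexp, at 0.56 in each. *Dbx1* was 26.0-fold higher, *Olig2* 5.55-fold and *Olig1* at least 4.74-fold. *Nkx2-9* was 3.61-fold lower. *Mnx1* was at least 1.63-fold lower by its brighter probe and 1.13-fold higher by its other probe.

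In *Dyrk2*-/-, 5 of 10 were called higher at E10.5 and 2 lower, against 17.6% and 13.9% of 21405 genes. The 5 were *Nkx2-2*, *Olig1*, *Olig2*, *Dbx1* and *Sim1*, but *Sim1* falls under the threshold at its bound, which leaves 4, and with normexp only *Olig2* and *Dbx1* were called higher. *Dbx1* was 12.0-fold higher, *Olig2* 3.16-fold, *Nkx2-2* at least 2.96-fold and *Olig1* at least 3.35-fold. *Nkx2-9* was 3.86-fold lower. *Dbx2* was 1.43-fold higher in *Dyrk2*-/- and 2.92-fold in WT, while *Nkx6-2* was 1.53-fold higher in WT and 1.06-fold lower in *Dyrk2*-/-, a sign that turned with quantile, spike-in or no scaling and with the deposited table. The median log2 ratio was 1.54 in WT and 0.78 in *Dyrk2*-/-, or 0.39 with bounds in place of values, beside −0.08 and −0.05 over all genes. The stage and genotype comparisons share arrays, so these values are not independent of those above.

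A limma fit of stage and genotype over the 4 arrays, with 1 residual degree of freedom, was the only test the arrays allowed, and 11 of the 12 probes entered it. That residual is the difference of the genotype ratio between stages, not a spread of replicate embryos. The errors and p-values of the fit borrow variance from other probes (median total degrees of freedom 9.07), so they do not measure replicate precision. For stage, 6 were called at adjusted p under 0.05. *Dbx1* rose by 4.15 ± 0.22 (log2, SE, adjusted p = 2.79e-06), *Olig2* by 2.07 ± 0.25 (adjusted p = 0.000277) and *Dbx2* by 1.03 ± 0.23 (adjusted p = 0.00849), whereas *Nkx2-9* fell by 1.90 ± 0.14 (adjusted p = 1.91e-05). *Olig1* and the brighter *Nkx2-2* probe were also called higher (limma adjusted p = 0.000473 and 0.00121), but these p-values rest on E8.5 readings not well above background, both for *Olig1* and that of *Dyrk2*-/- for *Nkx2-2*, so their sizes are given only as the bounds above. With spike-in scaling *Dbx2* and *Nkx2-9* were not called, and without the intensity trend *Dbx2* was not. Over all 32289 probes, 15.7% were called higher and 19.6% lower with stage. In each of these 6 the direction was the same in both genotypes.

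For genotype, limma called 0 of the 11 probes (1 at an unadjusted p below 0.05). It called 0.0124% of all probes higher and 0.00619% lower, which is 6 probes, beside 1591 at an unadjusted p below 0.05. The smallest p among the factors was that of the brighter *Nkx2-2* probe, with unadjusted p = 0.00228 and limma adjusted p = 0.413, and it too rests on the *Dyrk2*-/- E8.5 reading that was not well above background. With no scaling between arrays this probe was called. An exact two-sided permutation test of 2 arrays against 2 cannot go below p = 0.333.

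The hedgehog pathway was compared next, as 17 ligands, receptors, modulators and Gli factors. At E8.5, 1 was called lower in *Dyrk2*-/-, *Hhip*, and 1 higher, *Dhh*, which at its bound is at least 1.37-fold and so under the threshold. *Dhh* was named after its value was seen. With spike-in scaling, which puts 10385 of all 20848 genes in the lower group at E8.5, 0 of the 17 were called higher and 6 lower. At E10.5 only *Hhip* was called, again lower, and this call was lost with spike-in scaling (−0.53) and normexp (−0.57). *Hhip*, a hedgehog-binding inhibitor that the pathway itself induces, read −0.39 in WT and −1.28 in *Dyrk2*-/- at E8.5. The later levels were 0.10 and −0.59. It was lower on the mutant arrays by 1.86-fold and 1.61-fold. The list had a median log2 ratio of 0.12 at the earlier and −0.02 at the later stage.

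Floor plate and notochord genes, which mark the source of the signal, had 1 called lower in *Dyrk2*-/- at each stage. At E8.5 that was *Foxa2*, a forkhead factor of floor plate, notochord and endoderm, at 2.41 in WT and 1.35 in *Dyrk2*-/-, 2.08-fold lower. At E10.5 it was *T*, the notochord and tail bud factor brachyury, at −2.25 and −3.74, 2.81-fold lower. With spike-in scaling 4 were called lower at E8.5, and with no scaling 3 at E8.5 and 2 at E10.5. The median was 0.06 over 8 genes at E8.5 and −0.31 over 7 at E10.5. In whole embryos, fewer cells of a type and less RNA per cell cannot be told apart.

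Of 16 dorsal and intermediate progenitor factors, 12 were compared at E8.5, where *Prdm12*, a p1 progenitor factor, was 1.81-fold lower in *Dyrk2*-/-, but not called with normexp (−0.30). With spike-in scaling 6 of the 12 were called lower. None of the 16 compared was called at E10.5, with a median of −0.19, although 3 were called lower with no scaling. Of 21 genes of ventral neurons, 16 were compared at E8.5, where 0 were called higher and 2 lower. These were *Evx1*, 1.55-fold and under the threshold with quantile normalization and in the deposited table, and *Chat*, named after its value was seen, which at its bound is at least 1.08-fold lower and so under the threshold. The number lower was 9 with spike-in scaling and 6 with no scaling. *Evx1* was 14.6-fold lower at E10.5 than at E8.5 in WT and 16.7-fold lower in *Dyrk2*-/-. Which cells of the whole embryo gave its E8.5 signal was not tested, so it is not read as a signal of neurons. Of 18 compared at E10.5, 1 was called higher and 3 lower. *Tal1*, which V2b interneurons share with blood cells, was 1.79-fold higher. *Lhx1* was 1.78-fold lower, *Evx1*, of V0 interneurons, 1.77-fold and *Slc18a3*, the vesicular acetylcholine transporter, 1.56-fold. The *Slc18a3* call was lost with spike-in scaling (−0.48) and normexp (−0.49), and with no scaling 6 genes were called lower.

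General neural genes, of progenitors and of neurons, were compared together. At E8.5, 1 of 14 was called in *Dyrk2*-/-, *Neurog2*, a proneural factor, 1.81-fold higher, which was lost with spike-in scaling (0.29) and normexp (0.56). With spike-in scaling 8 of the 14 were called lower, and with no scaling 2. At E10.5, 5 of 19 were called lower and none higher, with a median of −0.49. Among them *Ina*, a neurofilament gene, was 1.60-fold, *Map2* 1.58-fold and *Nhlh2* 1.54-fold lower. The other 2, named after their values were seen, were *Stmn2* and *Dcx*, at −0.61 and −0.59 on the log2 scale. With spike-in scaling all 5 were under the threshold, between −0.51 and −0.43, and 0 of the 19 were called. The number lower was 7 with quantile normalization and in the deposited table, and 10 with no scaling (median −0.62). It was 4 with normexp and 4 with averaged probes. The calls of *Nhlh2* (−0.56) and *Dcx* (−0.55) were lost with normexp, and those of *Map2* and *Stmn2* with averaged probes. The progenitor genes *Sox1*, *Sox2*, *Sox3* and *Nes* were also named after their values were seen. At E10.5 they were not called, at −0.05, −0.09, −0.18 and −0.31, so the list median does not stand for all its genes. The summed signal of the list, relative to the 75th percentile, was 63.9 in WT and 60.8 in *Dyrk2*-/- at E8.5. The sums at E10.5 were 159.8 and 118. The sum was lower on the *Dyrk2*-/- E10.5 array, where *Nkx2-2* was called lower by its brighter probe, and the part of neural genes in that value was not tested. Spike-in scaling shifts every genotype log2 ratio by −0.56 at E8.5 and 0.16 at E10.5, which turns the sign of the hedgehog pathway median at both stages and of the floor plate and notochord median at E8.5. With no scaling both E8.5 medians turned as well.

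None of 6 Groucho co-repressor genes, through which many of these factors repress their targets, was called at either stage, although 2 were called lower at E8.5 with spike-in scaling. Their median log2 ratio was 0.11 at the earlier and −0.13 at the later stage, and each changes sign with spike-in scaling, the earlier one also with no scaling. Blood genes were compared as well. All 9 primitive erythroid genes were called higher in *Dyrk2*-/- at E8.5 and 7 at E10.5, with a summed signal of 13.5 in WT and 264 in *Dyrk2*-/- at E8.5. The later sums were 819 and 987. At E10.5 the number called was 6 with quantile normalization, with no scaling and in the deposited table. *Hba-x* lost its call in each of these, and with averaged probes the number was 8. In the earlier WT array 7 of the 9 were well above background, and in *Dyrk2*-/- all 9. At E8.5 *Hbb-y* was 63.8-fold, *Slc4a1* 34.1-fold, *Hba-x* 33.7-fold and *Gata1* 19.3-fold higher. All 9 were also called higher at E10.5 than at E8.5 in each genotype, and their part in the values of the 10 factors was not tested.

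Patterns across the 4 arrays were matched by the root mean square difference of centred log2 values, among 18806 genes well above background on all arrays. With 4 arrays, close matches are numerous. *Dbx1* was nearest to *Pmepa1* (0.05), *Slitrk6* (0.17) and *Lhx3* (0.24). *Dbx2* was nearest to *Pltp* (0.04), *Zscan2* (0.05) and *Klhl36* (0.06), and *Olig2* to *Alx4* (0.08), *Twist2* (0.09) and *Ralyl* (0.09). *Nkx2-9*, which alone among these 6 was lower at E10.5 in both genotypes, was nearest to *Alpk2* (0.05), *Penk* (0.06) and *Chrdl1* (0.07). For *Nkx6-1* these were *Rhob* (0.01), *Mmp11* (0.01) and an unnamed transcript, and for *Nkx6-2* *B130034C11Rik* (0.01), *Wfdc13* (0.02) and *LOC102640562* (0.02).

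Promoter sequences from RefSeq (GRCm38.p6), from 250 bases before to 50 after the start, were matched for 9 of the 10 genes, all but *Olig1*. The letters of 5 motifs were searched on both strands. The Gli site GACCACCCA was found in none of the 9 and in 0.253% of all 32851 promoters. The homeodomain core TAATTA was also in none of them, and in 5.29% of all. The same held for an E-box with the letters CATATG, which 3.92% of all promoters hold. A TATA-type box, spelled TATAAA, was present in *Dbx1*, *Olig2* and *Sim1*, which is 3 of 9, against 13.6% of all. The CCAAT motif was present in *Dbx1*, *Olig2*, *Nkx6-2* and *Mnx1*, which is 4 of 9, against 37.4% of all. No matches overlapped in these promoters, and a match is a description of letters, not of a working site. All 3 genes called between genotypes are shown, with matches in capitals. *Dbx1* (chr7:49636786-49637085, minus strand) and *Olig2* (chr16:91225300-91225599, plus strand), both called higher in *Dyrk2*-/- at E8.5, each hold 1 match to the TATA-type box and 2 to the CCAAT motif. *Nkx2-2* (chr2:147186353-147186652, minus strand), called lower, holds none.
Dbx1: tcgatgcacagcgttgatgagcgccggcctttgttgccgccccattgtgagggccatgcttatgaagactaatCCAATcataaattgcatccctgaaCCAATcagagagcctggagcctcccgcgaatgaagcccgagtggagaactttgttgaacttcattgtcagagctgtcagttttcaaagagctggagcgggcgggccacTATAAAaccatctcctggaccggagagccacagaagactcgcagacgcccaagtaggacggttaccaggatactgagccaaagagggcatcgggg
Olig2: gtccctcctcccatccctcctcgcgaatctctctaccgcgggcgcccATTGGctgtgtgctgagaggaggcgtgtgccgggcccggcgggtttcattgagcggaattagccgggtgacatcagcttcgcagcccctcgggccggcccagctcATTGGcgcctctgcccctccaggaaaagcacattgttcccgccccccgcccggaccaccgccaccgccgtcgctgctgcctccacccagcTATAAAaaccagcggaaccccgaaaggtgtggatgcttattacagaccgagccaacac
Nkx2-2: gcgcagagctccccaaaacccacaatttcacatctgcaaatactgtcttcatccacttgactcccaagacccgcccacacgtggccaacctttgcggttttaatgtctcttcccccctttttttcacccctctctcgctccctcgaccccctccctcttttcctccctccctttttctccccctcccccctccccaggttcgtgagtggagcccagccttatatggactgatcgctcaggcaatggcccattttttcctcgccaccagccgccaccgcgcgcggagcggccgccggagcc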

How the data were processed

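Single-colour Agilent arrays of whole-embryo RNA were analysed, 1 array for each of 4 groups. The authors deposited scanner files whose values are spot intensity on a linear scale, background-subtracted by Agilent Feature Extraction (10.7.1.1 per the file headers, 9.5.1.1 in the submitters' processing notes). They also deposited a table of intensity values with the same distribution on every array (median 27.6), used as an alternative.

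Outlier spots were left out, log2 values of repeated spots were averaged, and the 75th percentile over all 56605 probes was subtracted per array. A probe counted as well above background if no majority of its spots was marked otherwise. A gene was its brightest probe over the 4 arrays. A fold against a dim array used the higher of its value and the lowest value of probes well above background there. Accessions of 32994 probes were named through RefSeq, and the file's name was kept otherwise. limma 3.58.1 in R 4.3.3 fitted stage and genotype to probes that stood above background on 2 or more arrays, with an intensity trend and Benjamini-Hochberg adjustment.

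The 10 genes and the 11 gene lists were chosen with earlier results of these data known. Named from each list were at most 4 genes with the largest log2 ratio among those called between genotypes and well above background on both arrays, and for each factor above background on all arrays the 3 genes nearest in pattern. Some genes of the lists, and the counts that rest on them, are not reported here. Alternatives were quantile, spike-in (7 of 10 controls) or no scaling, normexp with offset 50, the deposited table, stricter or no filtering, averaging of probes, all spots, and a 2-fold threshold. They were applied to the genes of the lists only after the data were seen. For limma they were the scalings, normexp, the table, both filters and no trend.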

Additional observations from a re-analysis of the deposited data

Results flagged for a closer look

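In 4 of the 10 factors the *Dyrk2*-/- array was above the WT array at E8.5 and below it at E10.5, with all 4 arrays well above background. The log2 ratio was 0.93 and −0.18 for *Dbx1*, 0.57 and −0.46 for *Dbx2*, and 0.48 and −0.21 for *Nkx6-2*. For *Olig2* it was 0.81 and −0.0046, the latter far inside the array error of 0.21. Each value is 1 array against 1, and the difference between stages was not tested. How many of all genes show the same order was not counted, so the number is no result about the factors as a set. Spike-in scaling turned the E8.5 value of *Nkx6-2* to −0.08 and the E10.5 value of *Olig2* to 0.16, and normexp turned the latter to 0.02. Spike-in scaling also left the E8.5 value of *Dbx2* at 0.0099.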

How the results depend on the processing

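Dim signal is a limit, as 4 of the 10 factors were not well above background on every array. No paired analysis was possible because the labels give no replicate numbers and each group has 1 array. The cause of the changes below was not tested, except that the stricter filter compares fewer genes. Quantile normalization, the deposited table and keeping outlier spots changed no count of called factors in the fold comparisons.

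Between genotypes at E8.5 (2 higher, 1 lower, median 0.28), 1 factor was higher with no scaling (median 0.022), 0 higher and 3 lower with spike-ins (median −0.28), and 1 higher and 0 lower with normexp. It was 0 lower with both arrays above background (median 0.48), 3 higher and 2 lower with no filter, and 0 higher at 2-fold. At E10.5 (1 lower, median −0.21), 2 were lower with no scaling (median −0.34), 0 with normexp (median −0.18) and 0 at 2-fold, and the median was −0.05 with spike-ins. Averaging the probes put *Nkx2-2* at −0.52 there, under the threshold, and called *Mnx1* instead.

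Between stages in WT (6 higher, 2 lower, median 1.54), 1 was lower with normexp (median 0.66), with both arrays above background and with averaged probes (median 0.98). The number higher was 5 with spike-ins, normexp, both arrays above background and at 2-fold, and 7 with no scaling. The median was 1.08 with no filter. In *Dyrk2*-/- (5 higher, 2 lower, median 0.78), 6 were higher with no scaling (median 1.08). With spike-ins 8 were higher and 1 lower (median 1.44), with normexp 2 and 1 (median 0.25), with both arrays above background 2 and 1 (median 0.39), and at 2-fold 1 was lower. *Sim1* turned to −0.019 with normexp.

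For genotype, limma called 6 probes, and 24 with quantile normalization, 729 with no scaling, 33 with spike-ins, 25 with normexp, 40 with the deposited table, 10 with all arrays above background, 561 with no filter and 0 without trend. Of the factors' probes, 1 was called with no scaling, the brighter one of *Nkx2-2*. For stage it called 11381 probes, and 2567 with spike-ins and 6439 without trend. Of the factors' probes it called 6, and 8 with quantile normalization and the deposited table, 9 with no scaling, 7 with normexp and with no filter, 4 with spike-ins, 4 of 6 with all arrays above background, and 6 without trend, where one of *Mnx1* took the place of *Dbx2*.

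Spike-in scaling moved the median of all genes by −0.56 at E8.5, 0.16 at E10.5 and 0.67 between stages in *Dyrk2*-/-. No scaling moved it by −0.26, −0.13 and 0.31, and by 0.18 between stages in WT. Of all called genes, the share higher was 44.1% at E8.5 (13.8% with no scaling, 2.62% with spike-ins), 45.4% at E10.5 (28.9% and 69.3%, and 55.9% with normexp), 51.8% between stages in WT (66.9% with no scaling) and 55.8% in *Dyrk2*-/- (79.5% and 92.2%). Of single factors' values under other settings, 267 moved by less than the array error and 48 by more, and 1 called value, that of *Sim1*, turned sign. With values under the threshold included, 11 had the opposite sign.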

Other observations

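Gene lists named after other tissues were compared as well. Whether each tissue was present at these stages was not checked, so a call does not show a change in that tissue. Of 7 hypothalamic genes related to *Sim1*, 5 were compared at E8.5, where 1 was called, *Pou3f2*, a neural POU factor, 2.06-fold higher in *Dyrk2*-/-. Of 7 at E10.5, 2 were called lower, *Nkx2-1*, a ventral forebrain factor, 2.28-fold and *Otp* 1.83-fold. *Nkx2-1* and *Otp* were not well above background on either E8.5 array. The *Pou3f2* call was lost with spike-in scaling (0.48), where 2 of the 5 were called lower.

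The pancreatic bud also expresses *Nkx2-2*, *Nkx6-1* and *Mnx1*. Of 6 genes of that list compared at E8.5, *Gcg*, the glucagon gene, was 1.66-fold higher in *Dyrk2*-/- and *Sox9*, which many tissues express, 1.65-fold lower. The *Gcg* call was lost with spike-in scaling (0.17), normexp (0.36), no scaling (0.47) and averaged probes, and the *Sox9* call with averaged probes. With spike-in scaling 4 of the 6 were called lower at E8.5. At E10.5, 0 of 6 were called higher. *Pdx1* was not well above background on either E10.5 array.

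Of 7 oligodendrocyte lineage genes, *Cspg4* was 1.84-fold and *Sox10*, also a neural crest factor, 1.64-fold higher in *Dyrk2*-/- at E8.5, and 0 were called at E10.5. Of 6 somite genes compared, *Meox2* was 2.04-fold and *Pax1* 1.53-fold higher at E8.5. *Pax1* was 1.57-fold lower at E10.5. With spike-in scaling each of these calls was lost, at 0.32 for *Cspg4*, 0.15 for *Sox10*, 0.47 for *Meox2*, and 0.05 and −0.49 for *Pax1*. That of *Cspg4* was lost with normexp too, that of *Sox10* with no scaling, and that of *Pax1* at E8.5 with quantile normalization, no scaling, normexp, averaged probes and the deposited table. The later *Pax1* call was also lost with averaged probes. At E8.5, 4 oligodendrocyte lineage genes and 1 somite gene were called lower with spike-in scaling. These ratios were not tested.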
